A study of Mus musculus with 48 samples.

Results

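9 genes that regulate fibrinolysis and coagulation at the vessel wall were followed in the thoracic aorta of mice given the lysyl oxidase inhibitor BAPN. They were taken by symbol from the 18782 genes of the table, with no threshold on their values: the plasminogen activators Plat and Plau, the Plau receptor Plaur, the protease inhibitor Serpine2, tissue factor F3, the inhibitors Tfpi and Tfpi2, thrombomodulin Thbd and the protein C receptor Procr. The aim of the study was to find what distinguishes male from female mice in this model of aortic dissection. RNA of each of 48 wild-type C57BL/6J mice was sequenced as 1 library. MaCon (n = 10) and FeCon (n = 10) were males and females on plain drinking water. The other 4 groups drank 0.4% BAPN, which blocks the cross-linking of collagen and elastin, for 28 days from 3 weeks of age. Mice without a visible lesion at the end formed MaNonAD (n = 4) and FeNonAD (n = 8), and mice with a dissection or an aneurysm formed MaAAD (n = 7) and FeAAD (n = 9). The NonAD and AAD groups were therefore sorted by outcome after the same treatment, and mice whose aorta had ruptured before the end were in neither.

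Plasminogen activators turn plasminogen, which circulates from the liver, into plasmin, the protease that dissolves fibrin and also helps to degrade matrix. Plat acts mainly on fibrin, whereas Plau acts mainly at cell surfaces, where Plaur holds it. Coagulation starts when F3, which smooth muscle and adventitial cells carry, meets blood and binds factor VII. Tfpi blocks that complex, and Thbd and Procr on endothelium turn thrombin towards activation of the anticoagulant protein C. In the healthy wall these arms keep the inner surface free of clot and the outer wall ready to form it. On GRCm38, in the GENCODE M21 annotation, Tfpi, Thbd and Procr lie on chromosome 2, Serpine2 on chromosome 1, F3 on 3, Tfpi2 on 6, Plaur on 7, Plat on 8 and Plau on 14.

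Library totals ranged from 13548000 to 17281273 counts. Levels are given as CPM, counts scaled to library size with TMM factors. Fold changes are log2 values with 95% intervals. They come from 1 edgeR quasi-likelihood model of the 48 libraries, and p-values were adjusted by Benjamini and Hochberg's method over 14431 genes. The AAD and NonAD groups of a sex were set against the same controls, and the lesion comparisons use the same AAD libraries again, so the comparisons are not independent of each other. A gene passed the test at an adjusted p under 0.05. The tissue carried its markers: the summed level of 8 smooth muscle markers was between 30871 and 68658 CPM in MaCon and between 33477 and 58908 CPM in FeCon, and no marker of any list was at 0 throughout a group. In both AAD groups all 8 smooth muscle markers were lower than in controls and all 7 macrophage markers were higher. Of the AAD libraries, 4 stood apart in blood cell markers. Neutrophil markers summed to 237 CPM in MaAAD7, 881 CPM in FeAAD5 and 200 CPM in FeAAD9, against at most 10.2 CPM in any control library, and red cell markers summed to 26918 CPM in FeAAD2, against at most 1397 CPM. For those of the 9 genes that passed between lesioned and control aortas, the fold change is given below also without all 4, an analysis added after the data were seen. In bulk tissue, a change in the number of cells of a type and a change in RNA per cell cannot be told apart.

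The start regions of Plaur and F3 are shown because these genes moved in opposite directions in FeAAD and both carry the letters TGANTCA, the site bound by AP-1 factors, just before their start. Each line holds 250 bases before the RefSeq start of the gene on GRCm38.p6, plus strand, 5′ to 3′, with TGANTCA in capitals.
Plaur, chr7:24462233-24462482: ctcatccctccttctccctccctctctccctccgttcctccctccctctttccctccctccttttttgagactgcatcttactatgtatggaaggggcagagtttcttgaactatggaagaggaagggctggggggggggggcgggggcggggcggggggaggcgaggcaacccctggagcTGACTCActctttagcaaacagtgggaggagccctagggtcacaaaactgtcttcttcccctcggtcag
F3, chr3:121723287-121723536: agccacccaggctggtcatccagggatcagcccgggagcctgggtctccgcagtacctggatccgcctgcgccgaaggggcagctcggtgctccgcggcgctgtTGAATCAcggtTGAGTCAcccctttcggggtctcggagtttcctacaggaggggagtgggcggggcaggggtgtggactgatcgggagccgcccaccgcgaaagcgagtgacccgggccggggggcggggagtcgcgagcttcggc
In Plaur the letters began 69 bases before the start, and in F3 they were found at 146 and at 135 bases before it. RefSeq windows were matched for 6 of the 9 genes. TGANTCA, which reads alike on both strands, was also in the window of Procr and in 1 of 3 windows of Tfpi2, but in none of Serpine2 or Tfpi, and 6.75% of 32817 windows of the genome held it. GGGCGG, the Sp1 letters, was found on either strand 3 times in each of the windows of Plaur and F3 and 6 times in that of Serpine2. It was also found 1 time in each window of Tfpi and 2 times in 1 of 3 windows of Tfpi2, but not in that of Procr. Of all windows 32.7% held it. TATAAA was matched once, in a window of Tfpi, and in 12.4% of all windows. These matches describe letters and not binding.

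In control aortas the inhibitor Serpine2, known as protease nexin-1, was by far the most abundant of the 9. Divided by the length of the longest coding transcript, it stood at 358 ± 59.5 CPM per kb in MaCon and 361 ± 67.1 CPM per kb in FeCon (SD, n = 10 each), and it was above the other 8 genes in all 48 libraries. Thbd followed at 54.9 ± 10.7 and 58 ± 6.8 CPM per kb and F3 at 46 ± 7.94 and 58 ± 10.8 CPM per kb in MaCon and FeCon. Thbd was above F3 in only 13 of 20 control libraries, so that the order of these neighbours was not settled. Plat came next at 36.8 ± 4.37 CPM per kb in MaCon, below F3 in all 20 control libraries and above Procr in all 48 libraries.

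The receptor genes Procr, at 17.2 ± 4.75 CPM per kb, and Plaur, at 13.5 ± 2.62 CPM per kb in MaCon, lay close together, with Procr higher in 17 of 20 control libraries. Plau, at 4.55 ± 1.21 CPM per kb, and Tfpi, at 3.31 ± 0.425 CPM per kb, could not be ordered either, since Plau was higher in 13 of 20. Tfpi2 was last at 0.371 ± 0.115 CPM per kb, with counts between 2 and 110 over the 48 libraries, so single counts weigh in its values. The group mean of Plaur was below that of Procr in both control groups and in MaNonAD and above it in FeNonAD, MaAAD and FeAAD.

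**Figure D1:**
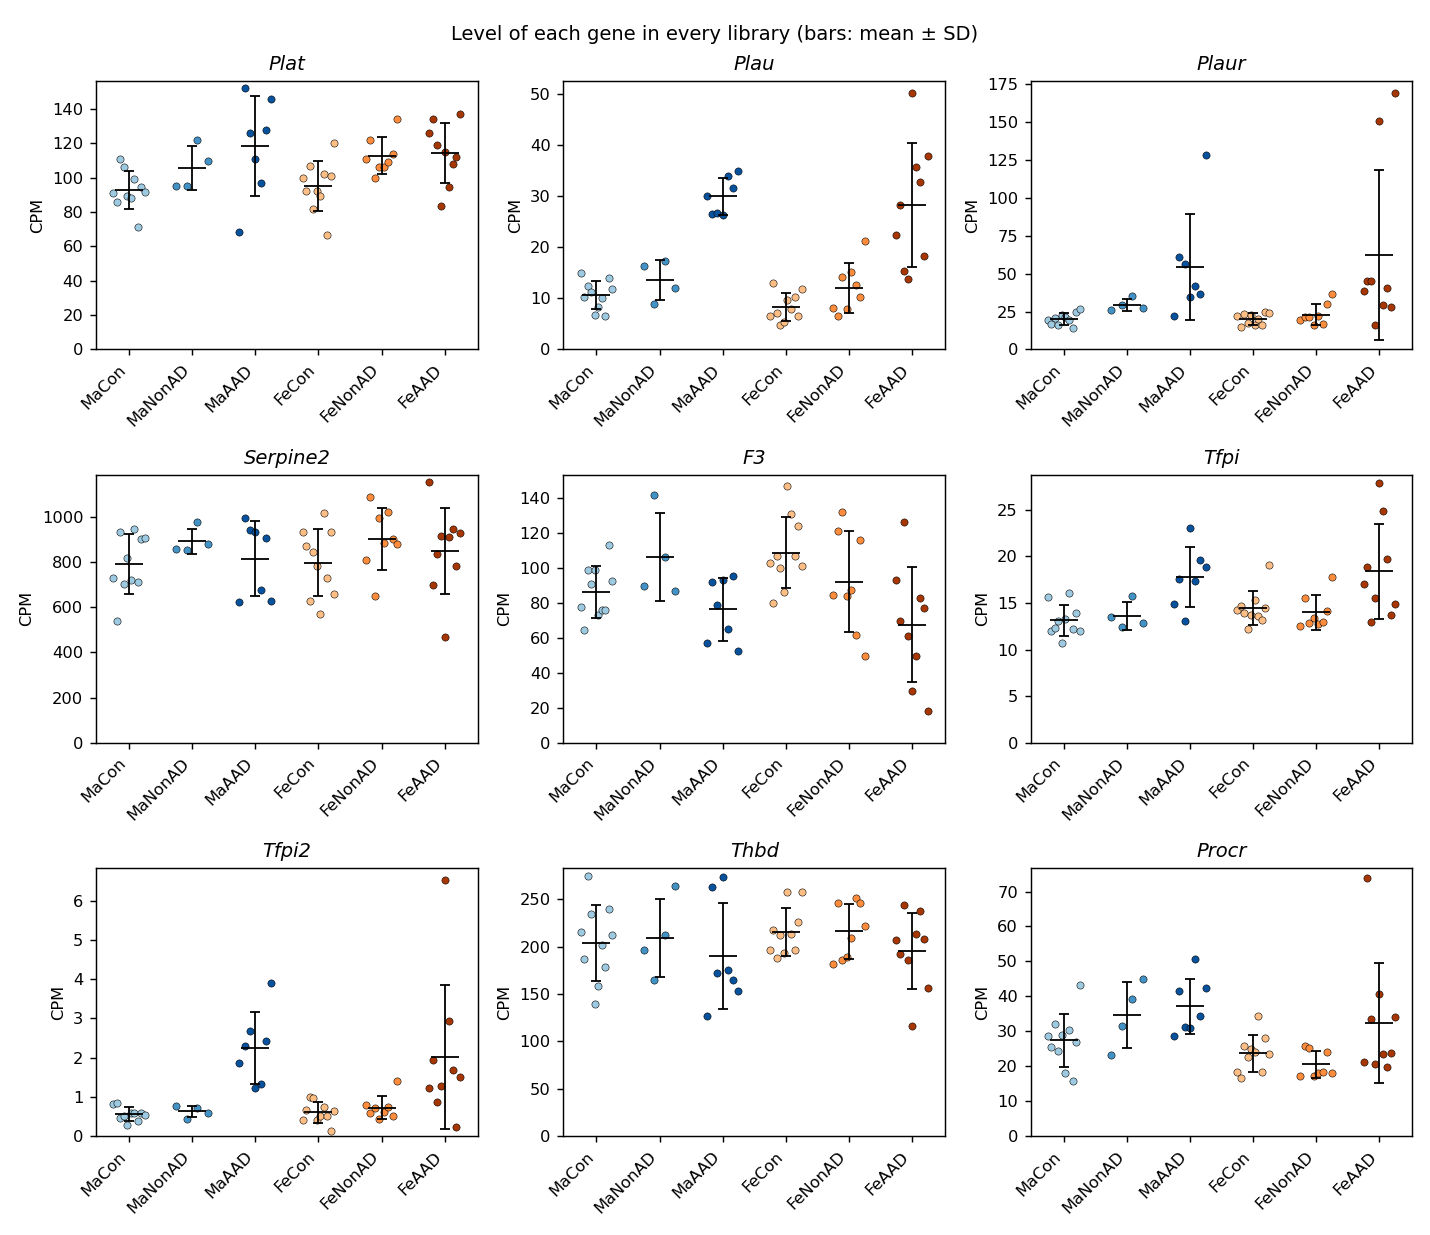
Level of each gene in CPM (vertical axes, starting at 0) in every library of the 6 groups; points are libraries, and bars give the mean ± SD. The 7 MaAAD and 9 FeAAD points of Plau all lie above the controls of their sex, whereas those of Serpine2 and Thbd spread around the control level.

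With lesions, the urokinase arm and Tfpi2 rose in both sexes and Serpine2 and Thbd did not pass the test in either. In MaAAD against MaCon 5 of the 9 genes were higher and 0 lower, against 18.9% of all tested genes higher and 16.1% lower. In FeAAD against FeCon 6 were higher and 1 lower, against 23.8% higher and 20.6% lower. Tfpi2 did not reach the filter on low counts in the controls alone, where the filter asks for more libraries than in the main fit. Its own calls are to be read with that limit. Among the 8 genes that reached the filter in the controls alone, 4 were higher in MaAAD, and 5 were higher and 1 lower in FeAAD. With the fold threshold of the study, a log2 fold change of 1 or more in size, the same 3 genes, Plau, Plaur and Tfpi2, were called in each sex, where 11.4% of all genes were called in males and 12.7% in females. The median log2 fold change of the 9 genes was 0.44 in males and 0.35 in females, beside -0.03 and 0.00 for all genes.

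Plau, the urokinase-type activator, separated lesioned from control aortas of the same sex completely. It ranged from 6.62 to 14.9 CPM with a median of 10.8 CPM in MaCon and from 26.3 to 35 CPM with a median of 30 CPM in MaAAD. In FeCon it ran from 4.84 to 13 CPM with a median of 7.52 CPM, and in FeAAD from 13.7 to 50.3 CPM with a median of 28.3 CPM. All 7 MaAAD and all 9 FeAAD libraries were thus above every control of their sex. The share of all tested genes with ranges apart was not counted, here or for the ranges compared below. The rise was 1.49 on the log2 scale (1.04 to 1.95, adjusted p = 1.03e-06) in males and 1.76 (1.33 to 2.20, adjusted p = 1.25e-08) in females. Males with lesions were also tightly grouped, at 30 ± 3.65 CPM (SD, n = 7) against 28.3 ± 12.1 CPM (SD, n = 9) in FeAAD. Without the 4 libraries high in blood cell markers the log2 fold changes were 1.49 (adjusted p = 1.03e-06) and 1.48 (adjusted p = 1.77e-06).

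Plaur, the receptor that holds urokinase at the cell surface, rose by a similar amount on average but very unevenly. It ranged from 14.4 to 26.8 CPM with a median of 20.3 CPM in MaCon and from 22 to 128 CPM with a median of 42 CPM in MaAAD. Females gave 14.6 to 24.4 CPM with a median of 20.9 CPM in FeCon and 16.1 to 169 CPM with a median of 40.6 CPM in FeAAD. Of the lesioned aortas, 6 of 7 MaAAD and 8 of 9 FeAAD libraries were above all controls of their sex, and MaAAD7, FeAAD5 at 151 CPM and FeAAD9 stood far above the rest. These are the 3 libraries with the highest neutrophil marker sums. Log2 fold changes were 1.42 (0.80 to 2.04, adjusted p = 0.000248) in males and 1.64 (1.05 to 2.23, adjusted p = 1.24e-05) in females, and without the 4 libraries 1.08 (adjusted p = 7.88e-06) and 0.72 (adjusted p = 0.00184).

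Plat, tissue-type activator, was already abundant in controls and rose little. MaCon libraries ran from 71.2 to 111 CPM around a median of 91.5 CPM, and MaAAD libraries from 68.5 to 152 CPM around 126 CPM. In females the range was 66.4 to 120 CPM around 96.1 CPM in FeCon and 83.4 to 137 CPM around 115 CPM in FeAAD. Groups overlapped, since MaAAD1 at 68.5 CPM was below every MaCon library while 5 of 7 were above them all, and 3 of 9 FeAAD libraries were above all FeCon libraries. The log2 fold change was 0.35 (0.12 to 0.58, adjusted p = 0.013) in males and 0.26 (0.05 to 0.48, adjusted p = 0.038) in females. The male call was lost without MaAAD2 (0.28, adjusted p = 0.0538) and without MaAAD7 (0.29, adjusted p = 0.0513). The female call was held in 39 of 48 fits that each left out 1 library and was lost without the 4 libraries (0.18, adjusted p = 0.221), while the male value was then 0.32 (adjusted p = 0.026).

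Serpine2, which inhibits thrombin as well as both plasminogen activators, gave no difference that passed the test. It ran from 540 to 946 CPM with a median of 772 CPM in MaCon and from 622 to 997 CPM with a median of 907 CPM in MaAAD. FeCon gave 569 to 1019 CPM around 814 CPM, and FeAAD 467 to 1153 CPM around 909 CPM. The ranges covered each other, and the lowest FeAAD value came from FeAAD5, the library highest in neutrophil markers. The log2 fold change was 0.04 (-0.23 to 0.32, adjusted p = 0.833) in males and 0.09 (-0.16 to 0.34, adjusted p = 0.593) in females. Its counts ran from 7901 to 18881 per library.

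**Figure D2:**
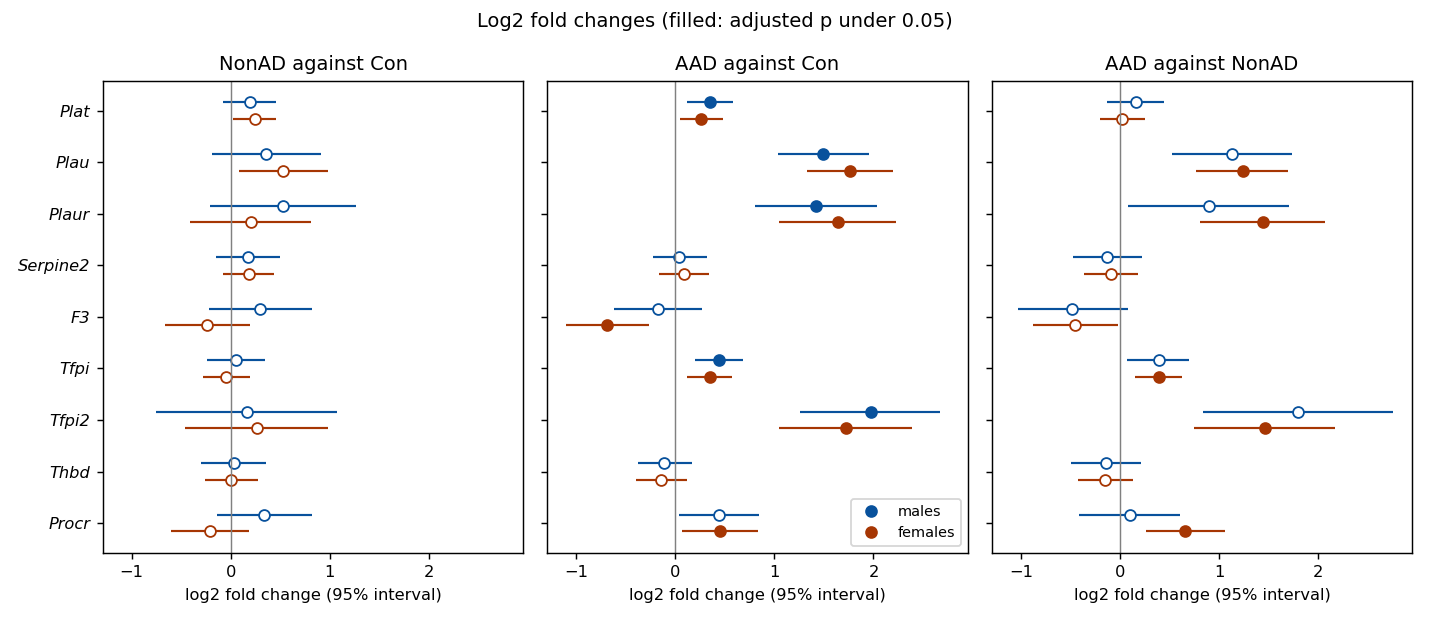
Log2 fold change of each gene (horizontal axes) in NonAD against Con, AAD against Con and AAD against NonAD for males (blue) and females (brown); lines are 95% intervals and filled circles passed at an adjusted p under 0.05. No circle is filled for NonAD against Con, and the intervals of Plau, Plaur and Tfpi2 for AAD against Con lie wholly above 0 in both sexes.

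F3, tissue factor, was the 1 gene that fell, and only the female comparison passed the test. It ranged from 80 to 147 CPM with a median of 105 CPM in FeCon and from 18.1 to 126 CPM with a median of 69.8 CPM in FeAAD, where 6 of 9 libraries were below every control. In MaCon it ran from 64.5 to 113 CPM around 84 CPM, and in MaAAD from 52.6 to 95.6 CPM around 78.7 CPM, with 2 of 7 libraries below the controls. It fell by 0.69 on the log2 scale in females (-1.10 to -0.27, adjusted p = 0.00579), while the male value was -0.17 (-0.62 to 0.27, adjusted p = 0.573). The difference between these responses was 0.51 (-0.09 to 1.12, adjusted p = 0.412), so a sex difference was not shown. The lowest values, 18.1 CPM in FeAAD9, 29.8 CPM in FeAAD5 and, among males, 52.6 CPM in MaAAD7, came from the 3 libraries highest in Plaur and in neutrophil markers. Among the AAD libraries of their sex, these also had the lowest fibroblast marker sums, at 916, 1934 and 2596 CPM in that order. Their endothelial marker sums, 356, 408 and 507 CPM, were likewise the lowest. The part of any of these cells in the level of F3 was not tested. Without the 4 libraries the female log2 fold change was -0.40 (adjusted p = 0.0769).

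Both Kunitz-type inhibitors rose. Tfpi, which blocks the complex of tissue factor and factor VII, ran from 10.7 to 16.1 CPM around a median of 12.7 CPM in MaCon and from 13.1 to 23 CPM around 17.6 CPM in MaAAD. In FeCon it was 12.2 to 19.1 CPM around 14 CPM, and in FeAAD 12.9 to 27.9 CPM around 17 CPM. The groups overlapped, with 5 of 7 MaAAD and 3 of 9 FeAAD libraries above all controls. Log2 fold changes were 0.44 (0.20 to 0.68, adjusted p = 0.00362) in males and 0.35 (0.12 to 0.57, adjusted p = 0.011) in females. Leaving out FeAAD5 alone, whose 27.9 CPM was the highest, brought the female value to 0.25 (adjusted p = 0.0567), and without the 4 libraries it was 0.27 (adjusted p = 0.068), with 0.46 (adjusted p = 0.00175) in males.

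Tfpi2, a related inhibitor that acts mainly on plasmin and other proteases and lies in the matrix, had the largest male log2 fold change of the 9 from the lowest level. It ran from 0.281 to 0.851 CPM with a median of 0.565 CPM in MaCon and from 1.23 to 3.9 CPM with a median of 2.3 CPM in MaAAD, without overlap. FeCon gave 0.147 to 1.01 CPM around 0.588 CPM and FeAAD 0.242 to 6.51 CPM around 1.51 CPM. Here 7 of 9 libraries were above the controls, FeAAD8 was at the low end and FeAAD5 at the high end. The rise was 1.97 (1.26 to 2.67, adjusted p = 1.61e-05) in males and 1.72 (1.05 to 2.39, adjusted p = 4.42e-05) in females, and 1.81 (adjusted p = 7.29e-06) and 1.17 (adjusted p = 0.00279) without the 4 libraries.

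Neither gene of the protein C arm passed in males, and Thbd did not pass in females. Thbd, the thrombin receptor of endothelium, ran from 140 to 275 CPM around 207 CPM in MaCon and from 127 to 273 CPM around 172 CPM in MaAAD, and from 188 to 258 CPM around 212 CPM in FeCon and from 116 to 244 CPM around 207 CPM in FeAAD. In males 1 of 7 MaAAD libraries was below every MaCon library and 0 were above, and in females 3 of 9 FeAAD libraries were below every FeCon library. The log2 fold changes were -0.11 (-0.38 to 0.17, adjusted p = 0.578) and -0.14 (-0.40 to 0.12, adjusted p = 0.385). Procr, which presents protein C to thrombomodulin-bound thrombin, ran from 15.9 to 43.2 CPM around 27.9 CPM in MaCon and from 28.6 to 50.7 CPM around 34.5 CPM in MaAAD, a log2 fold change of 0.44 (0.04 to 0.84, adjusted p = 0.0824), and of 0.43 (adjusted p = 0.0385) without the 4 libraries. In females it was 16.7 to 34.4 CPM around 23.9 CPM in FeCon and 19.9 to 73.8 CPM around 23.8 CPM in FeAAD, so that the medians were nearly equal. The female rise of 0.45 (0.07 to 0.83, adjusted p = 0.0466) rested on FeAAD2, at 73.8 CPM, the library with the most red cell marker RNA: without it the value was 0.21 (adjusted p = 0.314), and without the 4 libraries 0.02 (adjusted p = 0.949).

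In BAPN-treated aortas without a visible lesion, no gene of the 9 passed the test. In MaNonAD against MaCon 0 of 9 passed, where 0.443% of all genes were higher and 0.180% lower, and none had an unadjusted p under 0.05, as 12% of all genes had. DESeq2 also called 0, where it called 0.666% of all genes higher and 0.433% lower. The 4 MaNonAD libraries gave 16.3, 8.85, 17.4 and 12.1 CPM for Plau, within or just above the MaCon range, and a log2 fold change of 0.36 (-0.19 to 0.91, adjusted p = 0.652). For Plaur they gave 25.7, 29, 35 and 27.4 CPM, of which 3 were above all MaCon libraries, and a log2 fold change of 0.53 (-0.21 to 1.26, adjusted p = 0.617). F3 stood at 89.7, 142, 106 and 87.1 CPM, with 1 library above the controls and a log2 fold change of 0.30 (-0.22 to 0.82, adjusted p = 0.705).

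In FeNonAD against FeCon 0 of 9 passed as well, although 6.87% of all genes were higher and 7.67% lower, and DESeq2 called 0, with 7.11% of all genes higher and 8.31% lower. Here 2 of the 9 had an unadjusted p under 0.05, as had 28.9% of all genes. Plau averaged 12 ± 4.85 CPM (SD, n = 8) in FeNonAD, with a log2 fold change of 0.53 (0.08 to 0.98, adjusted p = 0.103). Plat averaged 113 ± 10.8 CPM (SD, n = 8), with a log2 fold change of 0.24 (0.02 to 0.46, adjusted p = 0.127). Within FeNonAD, library 8 was the highest for Plat, Plau, Plaur, Tfpi and Tfpi2 and the lowest for F3, at 134, 21.2, 36.6, 17.8, 1.4 and 49.6 CPM in that order. Its macrophage markers summed to 874 CPM, the highest of the 8 FeNonAD libraries, whose median was 479 CPM. It was also the highest of the 8 for fibroblast (4644 CPM), neutrophil (7.58 CPM) and platelet markers (29.3 CPM) and the lowest for endothelial (483 CPM), adipocyte (238 CPM) and mesothelial markers (47.4 CPM). The part of such cells in these levels was not tested.

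Between lesioned and lesion-free mice under the same BAPN treatment, the female comparison gave 5 higher genes and 0 lower, against 13.2% higher and 5.00% lower among all genes. Plau rose by 1.24 (0.77 to 1.70, adjusted p = 0.000161), Plaur by 1.44 (0.81 to 2.07, adjusted p = 0.00086) and Tfpi2 by 1.46 (0.75 to 2.17, adjusted p = 0.00248), the 3 that also met the fold threshold of the study, which 7.04% of all genes met. Tfpi2, counted in both the 5 and the 3, did not reach the filter on low counts in the controls alone. Its call is to be read with that limit. Tfpi rose by 0.39 (0.15 to 0.63, adjusted p = 0.0178) and Procr by 0.66 (0.26 to 1.06, adjusted p = 0.0171). When these 2 groups alone were fitted, the calls of Tfpi2 (1.47, adjusted p = 0.0507), Tfpi (0.40, adjusted p = 0.0936) and Procr (0.66, adjusted p = 0.0832) were lost. Ranges of all 5 overlapped with FeNonAD, and 6 of 9 FeAAD libraries were above all FeNonAD libraries for Plau and for Plaur. Without the 4 libraries only Plau passed, at 0.94 (adjusted p = 0.00958), while Plaur was at 0.52 (adjusted p = 0.102), Tfpi2 at 0.91 (adjusted p = 0.0822), Tfpi at 0.31 (adjusted p = 0.129) and Procr at 0.22 (adjusted p = 0.617). F3 was at -0.45 (-0.88 to -0.02, adjusted p = 0.141).

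In males the same step had the values of Plau and Tfpi2 just on the other side of the threshold. MaAAD against MaNonAD gave 0 of 9 at an adjusted p under 0.05, where 0.388% of all genes were higher and 0.0208% lower, and 4 of 9 at an unadjusted p under 0.05, as had 18.7% of all genes. DESeq2 called 2, both higher, where it called 4.65% of all genes higher and 0.473% lower. The 7 MaAAD libraries lay wholly above the 4 MaNonAD libraries for Plau, with a log2 fold change of 1.13 (0.53 to 1.74, adjusted p = 0.0507). The same held for Tfpi2, at 0.778, 0.446, 0.723 and 0.601 CPM in MaNonAD, with a log2 fold change of 1.80 (0.84 to 2.76, adjusted p = 0.0507). By DESeq2 the adjusted p was 0.00981 for Plau and 0.0105 for Tfpi2. Plaur differed by 0.90 (0.08 to 1.71, adjusted p = 0.217) and Tfpi by 0.39 (0.07 to 0.70, adjusted p = 0.159).

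In the model of the 48 libraries no difference between the sexes passed for any of the 9 genes. This was so between MaCon and FeCon, where 14.3% of all genes passed in either direction, between MaNonAD and FeNonAD (0.0624%) and between MaAAD and FeAAD (0.0901%), and DESeq2 called 0 in each, against 6.35% of all genes higher and 8.78% lower in MaCon than in FeCon, 0.0322% and 0.0215% between the NonAD groups, and 0.0429% and 0.0268% between the AAD groups. The difference between male and female responses was tested as an interaction and gave 0 of 9 for NonAD against Con (0.416% of all genes), for AAD against Con (1.34%) and for AAD against NonAD (0%), with 0 of 9 at an unadjusted p under 0.05 where 12.1%, 15.4% and 1.03% of all genes were. DESeq2 again called 0 of 9 in each, against 0.648% of all genes higher and 0.6% lower, 1.68% and 1.09%, and 0% and 0.00537% in that order. At an unadjusted p under 0.05 stood 29.1%, 6.48% and 2.22% of all genes in these 3 direct comparisons. The 1 unadjusted p under 0.05 of the 9 genes among the direct comparisons of the sexes was that of Procr, 0.76 on the log2 scale higher in MaNonAD than in FeNonAD (0.27 to 1.25, unadjusted p = 0.00322, adjusted p = 0.72), with 23.2, 31.6, 39.2 and 44.9 CPM in MaNonAD against 17.2 to 25.8 CPM around 18.2 CPM in FeNonAD. The 44.9 CPM came from MaNonAD4, whose red cell markers summed to 5177 CPM, against at most 1397 CPM in any control library. In MaNonAD3, at 39.2 CPM, they summed to 687 CPM. The part of blood in these values was not tested. The intervals for the AAD response, male minus female, ran from -0.90 to 0.36 for Plau, from -1.07 to 0.63 for Plaur and from -0.73 to 1.23 for Tfpi2, wide enough to leave sizeable differences undetected with these groups. F3 was at -0.34 in MaCon against FeCon (-0.74 to 0.06, adjusted p = 0.261), and it passed when these 2 groups alone were fitted (adjusted p = 0.0404).

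**Figure D3:**
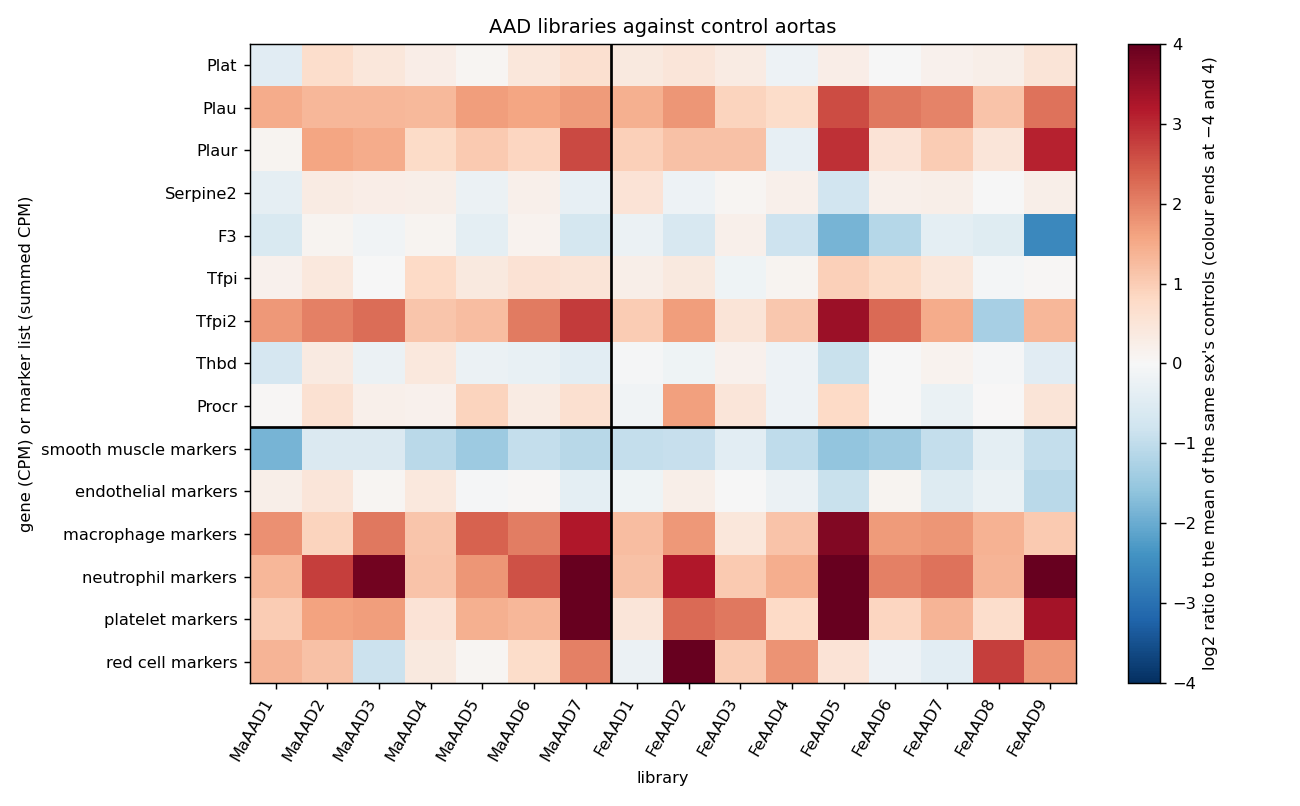
Each AAD library (columns, males left, females right) against the mean of the controls of its sex, as a log2 ratio shown by colour (ends at -4 and 4), for the 9 genes in CPM (upper rows) and 6 marker lists in summed CPM (lower rows). MaAAD7, FeAAD5 and FeAAD9 are deep red for Plaur, with log2 ratios of 2.66, 2.91 and 3.08, and are the same columns that are darkest for neutrophil markers.

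Lesioned aortas differed widely among themselves, as the map of AAD libraries shows. Against the control mean of its sex, Plau was up in each of the 16, with log2 ratios from 0.72 in FeAAD4 to 2.60 in FeAAD5. Plaur ran from -0.32 in FeAAD4 to 3.08 in FeAAD9, and F3 from 0.21 in FeAAD3 to -2.59 in FeAAD9. FeAAD5 and FeAAD9 were alike in high Plaur and low F3 but not in Tfpi2, with log2 ratios of 3.42 and 1.32, nor in macrophage markers, with 3.69 and 1.04. They also had the lowest FeAAD sums of fibroblast markers, 1934 and 916 CPM, and of endothelial markers, 408 and 356 CPM. FeAAD2, with a red cell log2 ratio of 6.41, had the highest Procr, at 1.64, and a Plaur ratio of 1.17. Macrophage markers summed to between 712 and 3534 CPM in MaAAD and between 587 and 5506 CPM in FeAAD, against at most 534 CPM in MaCon and 597 CPM in FeCon, and their part in the levels of Plau, Plaur and Tfpi2 was not tested. Platelet markers, of which 2 of 5 tested were higher in MaAAD and 5 of 5 in FeAAD than in controls, reached 391 CPM in MaAAD7 and 714 CPM in FeAAD5. Neutrophil markers were higher for 4 of 5 in MaAAD and 5 of 5 in FeAAD, red cell markers for 0 of 5 and 5 of 5. Endothelial markers were higher for 3 of 8 and lower for 0 in MaAAD, and higher for 2 and lower for 1 of 8 in FeAAD. Their sums were 507 to 927 CPM and 356 to 900 CPM, against 511 to 800 CPM in MaCon and 520 to 955 CPM in FeCon. Which cells of these aortas carried Thbd and Procr was not tested. Fibroblast markers were higher for 2 and lower for 1 of 6 in MaAAD and higher for 1 and lower for 2 in FeAAD, heart muscle markers lower for 1 and 5 of 6, mesothelial markers lower for 0 and 3 of 4, and adipocyte markers passed for 0 of 4 in both.

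Within groups, some of the 9 genes varied together across mice. For each of 36 pairs the correlation of log2(CPM + 1) over 48 libraries was taken after the group means had been removed, with two-sided permutation tests of 100000 resamples within groups and adjustment over the 36 pairs. Both Pearson's r and Spearman's rho passed for 5 pairs, all positive. Pearson's r alone passed for 4 more, among them Plau with F3, the 1 negative pair, at r = -0.45 (permutation p = 0.0103, adjusted p = 0.0414), rho = -0.32 (permutation p = 0.0421, adjusted p = 0.138) and r = -0.40 without 2 libraries. Spearman's rho alone passed for Plaur with Procr, at rho = 0.58 (permutation p = 6e-05, adjusted p = 0.00108), r = 0.44 (permutation p = 0.0178, adjusted p = 0.0641) and r = 0.43 without 2 libraries. Plat and Plaur were the closest, with r = 0.60 (permutation p = 5e-05, adjusted p = 0.0018) and rho = 0.60 (permutation p = 5e-05, adjusted p = 0.00108), and r = 0.57 without the 2 libraries farthest from the median of Plat. Plau and Tfpi gave r = 0.56 (permutation p = 0.00019, adjusted p = 0.00228) and rho = 0.47 (permutation p = 0.00205, adjusted p = 0.0173), and 0.48 without 2 libraries. For Plau and Tfpi2 r was 0.54 (permutation p = 0.00015, adjusted p = 0.00228) and rho 0.50 (permutation p = 0.00057, adjusted p = 0.00684), and r was 0.46 without 2 libraries.

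The other pairs were Plat with Procr, at r = 0.44 (permutation p = 0.00216, adjusted p = 0.0194), rho = 0.45 (permutation p = 0.0024, adjusted p = 0.0173) and 0.42 without 2 libraries, and Serpine2 with Thbd, at r = 0.46 (permutation p = 0.00359, adjusted p = 0.0227), rho = 0.41 (permutation p = 0.00659, adjusted p = 0.0395) and 0.34 without 2 libraries. The opposed movement of Plaur and F3 rested on 2 libraries: r was -0.44 (permutation p = 0.0439, adjusted p = 0.113), rho -0.06 (permutation p = 0.704, adjusted p = 0.745), and r -0.07 without the 2 libraries farthest from the median of Plaur. All genes of a library share its depth and its mix of cells, so these pairs do not show that 1 gene follows another.

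**Figure D4:**
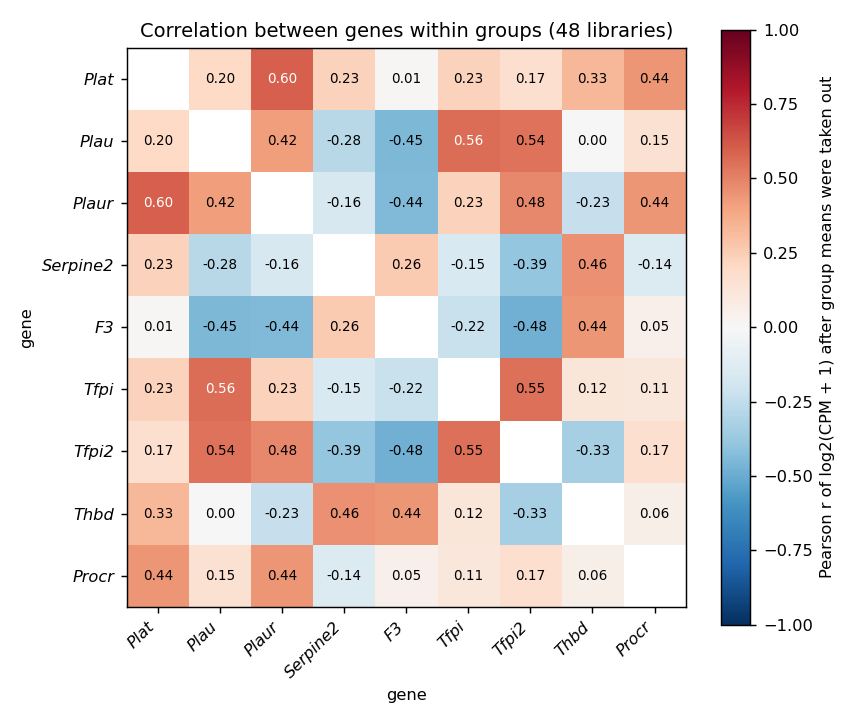
Pearson r between each pair of the 9 genes (rows and columns) over 48 libraries, from log2(CPM + 1) with group means removed; red is positive and blue negative. Plat with Plaur, at 0.60, is the highest value, and F3 is negative with Plau, Plaur, Tfpi and Tfpi2.

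Over all 14431 genes, the ones whose variation within groups was most like that of each gene were listed as a description, with Pearson r over 48 libraries and no test. Plaur was closest to the tubulin genes Tubb6 (r = 0.93) and Tuba1c (r = 0.92) and to the RNA helicase gene Ddx39a (r = 0.88), and these values were 0.89, 0.87 and 0.81 without the 2 libraries farthest from its median. Among the genes closest to Plau were the septin gene Septin11 (r = 0.79) and Arsi (r = 0.77), and Septin11 also led for Tfpi (r = 0.73), followed by Cbfb (r = 0.70) and Rap1b (r = 0.69). Serpine2 went with the matrix proteoglycan gene Bgn (r = 0.83), the catenin gene Ctnna1 (r = 0.82) and the protease gene Htra1 (r = 0.82). F3 went with Plekha6 (r = 0.83), D630003M21Rik (r = 0.80) and the synaptotagmin gene Syt7 (r = 0.78). For Tfpi2 the nearest were the serotonin receptor gene Htr7 (r = 0.85) and the receptor genes Klra2 (r = 0.83) and Klrd1 (r = 0.82), with rho between 0.52 and 0.65. Thbd was nearest to Ston1 (r = 0.78), the netrin gene Ntn4 (r = 0.77) and the growth factor gene Pdgfd (r = 0.77), and Procr to Cd24a (r = 0.65), Mkrn1 (r = 0.64) and Krt80 (r = 0.63). Txndc5 (r = 0.65) and Msn (r = 0.64) were among the genes closest to Plat.

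Messages for the plasma proteases on which these regulators act were scarce in the aorta. Of 53 further genes of the system, in 3 lists, 20 were not tested: the plasminogen gene Plg had at most 3 counts in any library, prothrombin F2 at most 2, the fibrinogen chain genes Fga, Fgb and Fgg at most 2, 2 and 5, and antithrombin Serpinc1 at most 5. Of 18 other plasminogen system genes 13 were tested, of which 3 were higher and 1 lower in MaAAD and 6 higher and 1 lower in FeAAD than in controls, and of the 11 that reached the filter in the controls alone 3 were higher and 1 lower in MaAAD and 5 higher and 1 lower in FeAAD. Among all genes 18.9% were higher and 16.1% lower in males, and 23.8% and 20.6% in females, the shares against which the counts of the 3 lists are to be read. In FeNonAD against FeCon 4 of the 13 were higher and 1 lower, against 6.87% and 7.67% of all genes. Thbs1, a matricellular protein that binds plasminogen and fibrin, had a mean of 75.5 ± 29.9 CPM (SD, n = 10) for MaCon and of 752 ± 289 CPM (SD, n = 7) for MaAAD, a log2 fold change of 3.32 (adjusted p = 1.56e-08), and rose by 3.62 (adjusted p = 7.86e-10) in FeAAD. It was higher by 1.15 (adjusted p = 0.0271) in FeNonAD than in FeCon, and by 2.47 (adjusted p = 9.96e-05) in FeAAD than in FeNonAD. Mrc2, a collagen receptor that associates with Plaur, rose by 0.85 (adjusted p = 6.94e-06) in MaAAD and 0.54 (adjusted p = 0.00104) in FeAAD. Vldlr, a receptor that clears protease and inhibitor complexes, fell by 0.88 (adjusted p = 0.000112) and by 1.03 (adjusted p = 2.19e-06). Serpinb2, an inhibitor of Plau, passed in FeAAD, with 0.0265 ± 0.046 CPM (SD, n = 10) for FeCon and 0.857 ± 1.42 CPM (SD, n = 9) for FeAAD, with adjusted p = 0.000137 there and adjusted p = 0.0678 in MaAAD, and a difference between the sexes was not tested. It reached the filter on low counts only through libraries other than the controls, and it was too low to be tested without the 4 libraries.

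Of 22 procoagulant factors and receptors 13 were tested, with 6 higher and 1 lower in each of the AAD groups. Of these 13, however, 5 (F5, F7, F8, F10 and F2rl2) did not reach the filter on low counts in the controls alone. F8 was not called in MaAAD (adjusted p = 0.713) or FeAAD (adjusted p = 0.156). Entry to the test through lesioned libraries favours a higher call, so the calls of the others are to be read with that limit. Of the remaining 8 in each AAD group 2 were higher and 1 lower. F7, the partner of tissue factor, had a male mean of 0.0533 ± 0.0525 CPM (SD, n = 10) for MaCon and 2.53 ± 2.05 CPM (SD, n = 7) for MaAAD (adjusted p = 2.98e-06), and a female mean of 0.0269 ± 0.0465 CPM (SD, n = 10) for FeCon and 4.38 ± 8.73 CPM (SD, n = 9) for FeAAD (adjusted p = 4.31e-08). F10, which that complex activates, stood at 0.152 ± 0.111 CPM in MaCon and 2.57 ± 2.79 CPM in MaAAD (adjusted p = 5.36e-05), and at 0.175 ± 0.178 CPM in FeCon and 4.11 ± 7.53 CPM in FeAAD (adjusted p = 3.6e-06). Without the 4 libraries the log2 fold changes of F7 were 5.07 (adjusted p = 3.7e-09) in MaAAD and 4.22 (adjusted p = 4.63e-06) in FeAAD, and those of F10 3.33 (adjusted p = 4.61e-06) and 2.06 (adjusted p = 0.00385). F5, the cofactor of factor X, rose by 2.13 (adjusted p = 4.27e-05) and 2.23 (adjusted p = 1.15e-05), F13a1, which cross-links fibrin and is made by macrophages, by 1.21 (adjusted p = 2.71e-05) and 0.92 (adjusted p = 0.0004), and the thrombin receptor gene F2rl2 by 2.44 (adjusted p = 0.000279) and 2.07 (adjusted p = 0.00117) in MaAAD and FeAAD. Of 13 other anticoagulant genes 7 were tested, with 1 higher and 2 lower in MaAAD, and 1 higher and 4 lower in FeAAD, all 7 having reached the filter in the controls alone. Pros1, the cofactor of protein C, rose by 0.59 (adjusted p = 6.06e-06) and 0.53 (adjusted p = 1.15e-05). Ptgis, which makes prostacyclin, fell by 0.57 (adjusted p = 0.00592) and by 0.81 (adjusted p = 3.21e-05), and Entpd1, which removes extracellular ADP, fell by 0.50 (adjusted p = 0.0141) and by 0.73 (adjusted p = 0.000119). Nos3, the endothelial nitric oxide synthase, fell by 0.69 (adjusted p = 0.00118) and Hs3st1, which makes heparan sulphate that binds antithrombin, by 0.52 (adjusted p = 0.0352) in FeAAD, where the values in MaAAD were 0.02 (adjusted p = 0.949) and 0.48 (adjusted p = 0.0804). No test of a difference between the sexes is given for Nos3 or Hs3st1, so none is shown. Against FeCon, the lesion-free FeNonAD group gave -0.60 (adjusted p = 0.0203) for Nos3 and -0.53 (adjusted p = 0.0186) for Ptgis, and FeAAD against FeNonAD gave -0.09 (adjusted p = 0.759) and -0.28 (adjusted p = 0.231). In FeNonAD against FeCon the endothelial marker Pecam1 was at -0.60 (adjusted p = 0.0287), the 1 of 8 endothelial markers that passed, the median endothelial sum was 605 CPM against 742 CPM, and 2 of 8 smooth muscle markers were lower; their part in these values was not tested. Hs3st1 was at -0.45 (adjusted p = 0.134) in FeAAD against FeCon without the 4 libraries. The other genes of the 3 lists named here, apart from Serpinb2, had the same direction and passed in each AAD group where they had passed with all libraries, F2rl2 in FeAAD at 1.40 (adjusted p = 0.0495).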

How the data were processed

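RNA of the thoracic aorta was sequenced by the authors as strand-specific mRNA libraries. According to the submitters' processing notes, reads were aligned with Bowtie2 to GRCm39 and counted with RSEM 1.3.1. The deposited values are expected counts per gene, not scaled to library size. All values of the 9 genes were whole; others were rounded, and 4.99% of the table was not whole. Gene positions and lengths were from GENCODE M21 (GRCm38), and start regions from RefSeq (GRCm38.p6). The 6 groups were taken from the labels. Tests used edgeR 4.0.16 in R 4.3.3: filterByExpr, TMM (factors 0.873 to 1.08) and the robust quasi-likelihood test over 12 contrasts. Standard errors and intervals are approximate, from the F statistic. Libraries of a group are separate mice. As alternatives, the test was repeated with DESeq2 1.42.0, with size factors of DESeq2 in edgeR, with no filter, no robust estimation, the fold threshold of the study, a replicate block, the compared groups only, CPM without TMM and leaving out each library; leaving out 4 libraries with at least 100 CPM of neutrophil or 10000 CPM of red cell markers was added after seeing the data. The test was checked on simulated data. Figures were drawn with matplotlib 3.10.9. The 9 genes, the gene lists and the tests were chosen with earlier results of these data known. Besides the 9 genes, up to 5 genes of each of the 3 lists with the largest mean of the MaAAD and FeAAD log2 fold changes among those that passed in either, and the 3 most similar genes of each of the 9, were named. 3 genes that this rule picks are not reported here.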

Additional observations from a re-analysis of the deposited data

Results flagged for a closer look

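Of 54 sets of libraries (9 genes in 6 groups), 3 held a library whose gap to its nearest neighbour on the log2(CPM + 1) scale was large for the range of its group by Dixon's criterion, and chance alone would mark about 5% of such sets. Serpine2 was at 540 CPM in MaCon2, where the other MaCon libraries ran from 705 to 946 CPM. Tfpi was at 19.1 CPM in FeCon10, where the others ran from 12.2 to 15.3 CPM. Tfpi2 was at 1.4 CPM in FeNonAD8, where the others ran from 0.434 to 0.806 CPM.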

How the results depend on the processing

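Over 9 genes and 12 comparisons, 108 values were refitted. No value that passed the test changed direction. All 108 calls were unchanged without robust estimation and with the replicate number as a block; the replicate block left 7 genes in FeAAD against FeCon, 5 in FeAAD against FeNonAD, 5 in MaAAD against MaCon and 0 in MaAAD against MaNonAD. The numbers do not pair the mice: same-numbered libraries of 2 groups had mean correlations of their deviations between -0.07 and 0.16, and in no comparison was every pair over 0.1. Under DESeq2 and under its size factors, 2 genes passed in MaAAD against MaNonAD in place of 0. With the compared groups alone, 2 in place of 5 passed in FeAAD against FeNonAD and 1 in place of 0, F3 (-0.34, adjusted p = 0.0404), in MaCon against FeCon, where Tfpi2 was removed by the filter; Procr was lost in FeAAD against FeCon (0.46, adjusted p = 0.101) and gained in MaAAD against MaCon (0.47, adjusted p = 0.0334). With no filter on low counts Procr was lost in FeAAD against FeCon (0.45, adjusted p = 0.052). The fold threshold of the study left 3 genes in each of MaAAD against MaCon, FeAAD against FeCon and FeAAD against FeNonAD. Without the 4 libraries high in blood cell markers, 3 passed in FeAAD against FeCon (19% of all genes higher and 15.4% lower), 1 in FeAAD against FeNonAD (6.21% and 0.829%) and 2 in MaAAD against MaNonAD (2.36% and 0.181%), where Plau was at 1.10 (adjusted p = 0.0327) and Tfpi2 at 1.62 (adjusted p = 0.0264). Leaving out 1 library at a time gave 4 to 7 genes in FeAAD against FeCon, 4 to 6 in FeAAD against FeNonAD, 4 to 6 in MaAAD against MaCon, 0 to 2 in MaAAD against MaNonAD and 0 to 1 in FeNonAD against FeCon. The 1 in the last was Plau without FeCon2 (0.62, adjusted p = 0.0486). Plat in MaAAD against MaCon was lost without MaAAD2 (0.28, adjusted p = 0.0538) and without MaAAD7 (0.29, adjusted p = 0.0513). Without FeAAD2, Procr in FeAAD against FeNonAD was at 0.41 (adjusted p = 0.0869). CPM without TMM factors moved no group mean by more than 4.08%. Beyond these values the cause was not tested. Tfpi2, with a median of 11 counts, is the gene most limited by depth.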
